A study of Mus musculus with 4 samples.

Results

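Endothelial haemostasis genes are described here as 9 genes taken by symbol: von Willebrand factor (Vwf), factor VIII (F8), thrombomodulin (Thbd), the endothelial protein C receptor (Procr), tissue factor (F3), tissue factor pathway inhibitor (Tfpi), tissue and urokinase plasminogen activator (Plat and Plau) and endothelial nitric oxide synthase (Nos3). All 9 were found among the 25239 genes of the count files and had enough reads to be tested. Total liver RNA was sequenced from C57BL/6 mice aged 6 to 8 weeks that received normal saline (control, 2 libraries) or Gynura segetum extract (extract, 2 libraries). The extract, concentrated to 2 g/mL, was given into the stomach at 30 g/kg per day, and both groups were dosed for 3 weeks. Gynura segetum is a plant that holds pyrrolizidine alkaloids, which are turned into reactive pyrroles in hepatocytes and injure the sinusoidal endothelium, so each comparison asks how far a vessel wall gene differed in liver after the extract. Whether the libraries of a group are from different mice is not stated, and p-values therefore measure only the spread between these libraries, which may be technical.

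Endothelium keeps blood fluid and can also start clot formation. Its storage granules release von Willebrand factor, a long multimer that binds platelets, carries factor VIII and is trimmed by the plasma protease ADAMTS13. Tissue factor starts coagulation and Tfpi blocks it, while thrombomodulin and Procr redirect thrombin to activate protein C, which shuts coagulation down. Plasminogen activators begin the breakdown of fibrin, and nitric oxide relaxes vessels and restrains platelets. In mouse liver the sinusoidal endothelium is the main source of factor VIII.

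Thrombomodulin, tissue plasminogen activator and nitric oxide synthase transcripts rose after the extract, and factor VIII transcripts fell. Von Willebrand factor, tissue factor, Tfpi, Procr and urokinase did not pass the threshold, an adjusted p under 0.05 by the quasi-likelihood test of edgeR over 13963 genes. Thus 3 of the 9 genes were called higher and 1 lower, where 8.54% of all genes tested were called (4.91% higher, 3.63% lower). Over all genes, 686 higher and 507 lower calls became 940 and 338 with total-count scaling. In 5 genes both extract libraries lay above both controls and in 2 genes below, an absence of overlap shown by 54.4% of all genes tested (27.6% above, 26.7% below). The median log2 fold change of the 9 genes was 0.62, beside -0.005 over all genes tested. The 9 genes and the lists below were chosen with earlier results of these data known. Their counts and medians beside those of all genes are therefore a description only. In whole liver, fewer cells of a type and less RNA per cell cannot be told apart.

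**Figure D1:**
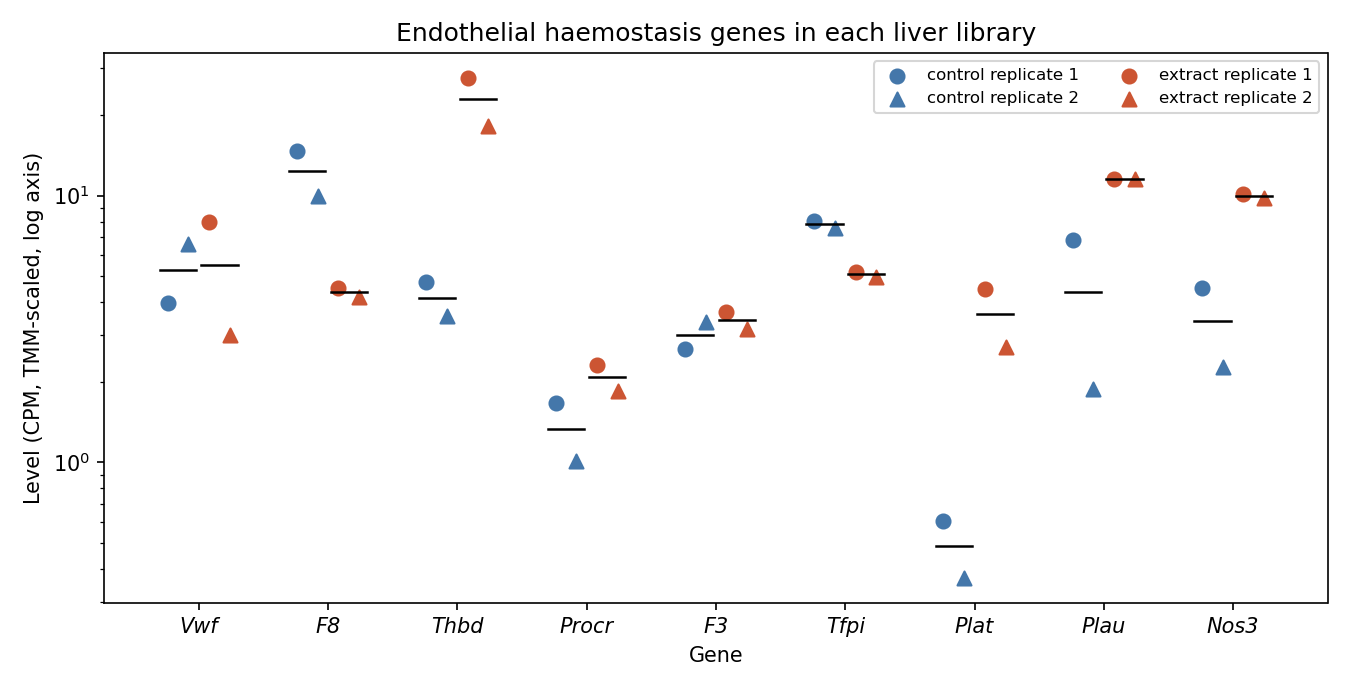
Level of each gene in CPM (TMM-scaled, log axis) in the 2 control and 2 extract libraries, with a line at each group mean. Thbd, Plat and Nos3 lie higher in both extract libraries and F8 lower, while the groups overlap for Vwf and F3.

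Reads counted to genes ranged from 32215268 to 49711750 per library. Control replicate 2 was the shallowest library and had the fewest genes with a count (15818, against 16363 to 16478 in the others). Among markers of endothelium of any vascular bed, 3 of 11 were higher (Pecam1, log2 fold change 1.31, Cdh5, 1.11, and Egfl7, 0.90) and 0 lower, and their summed level of 446.2 to 488.3 CPM in extract libraries stood against 325.6 to 362.6 CPM in control. Of 11 sinusoidal markers, 8 were lower and 0 higher (243.9 to 245.1 CPM in extract against 438.0 to 443.4 CPM in control), among them Mrc1 (log2 fold change -2.25), Stab2 (-2.01) and Gpr182 (-1.87). Of 12 markers of vascular or capillarised endothelium, 4 were higher, with Ly6c1 (5.20), Emcn (1.71) and Cd34 (3.73) foremost, and 1, Plvap (-0.80), was lower. Ly6c1 had only 19 and 2 counts in control, and its value was 7.07 without control replicate 1 and 4.57 without replicate 2, while that of Cd34 was 4.78 and 3.20. The calls of Cd34, Emcn, Plvap and Egfl7 were lost with either extract library left out, that of Cd34 also with no filter on low counts (edgeR adjusted p = 0.0710), that of Plvap with total-count scaling (0.0708), and those of Pecam1 and Cdh5 without extract replicate 1. Of 8 hepatocyte markers 1, Apoa1 (-0.87), was lower and 7 did not pass. Their summed levels, mostly albumin (Alb, edgeR adjusted p = 0.0982), were 134200 and 141600 CPM in control libraries, with 91420 and 97090 CPM after the extract. No endothelial marker on these lists was at 0 in all libraries, and the part of any such shift in the values below was not tested.

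Factor VIII transcripts fell to 0.352 times the control level. The gene (chromosome X, positions 75172715 to 75382615 on the minus strand, GRCm38) encodes the cofactor that speeds factor X activation by factor IXa. It had 706 and 296 counts in control and 195 and 199 in extract libraries, or 14.7 and 9.96 CPM against 4.52 and 4.18 CPM. Both extract libraries lay well below both controls and close to each other. The means were 12.3 ± 3.36 and 4.35 ± 0.243 CPM (SD, n = 2 libraries each), a log2 fold change of -1.51 (SE 0.26, edgeR adjusted p = 0.0169). The call was lost with either extract library left out (log2 fold change -1.57 and -1.47, edgeR adjusted p = 0.0707 and 0.0838), where the lone library is assumed, here and below, to vary like the pair. All 6 Kupffer cell markers were also lower, with summed levels of 21.6 to 25.2 CPM after the extract and 359.2 to 429.3 CPM in control, and 8 of 11 sinusoidal markers were, as given above. The part of either in the F8 values was not tested.

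Von Willebrand factor transcripts differed more within the groups than between them. Vwf (chromosome 6, 125546774 to 125686679, plus strand) had 190 and 196 counts in control and 345 and 143 in extract libraries, or 3.96 and 6.60 CPM against 8.00 and 3.00 CPM. The highest and the lowest value were both in extract libraries. Means were 5.28 ± 1.86 and 5.50 ± 3.53 CPM (SD, n = 2 libraries each), with a log2 fold change of 0.06 whose 95% interval ran from -1.18 to 1.30 (edgeR adjusted p = 0.963). That interval holds a difference of 1 log2 unit in either direction, so neither is excluded. Extract replicate 1 exceeded extract replicate 2 by 1.41 on the log2 scale, a gap larger than that of 96.9% of the genes tested. Summed smooth muscle markers (5 genes, 0 past the threshold with edgeR and 1 at an unadjusted p under 0.05) stood at 57.7 CPM in extract replicate 1 and 25.0 CPM in extract replicate 2. They stood at 31.3 and 12.8 CPM in control replicates 1 and 2, where Vwf went the other way. Their part in the Vwf values was not tested.

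The coding stretch of Vwf below is shown because the study's title concerns ADAMTS13, which cuts the protein at a single bond. It spans chr6:125643137-125643214 (GRCm38, plus strand) in exon 28 of the 52 exons of the longest coding transcript of GENCODE vM21, and the capitals mark the codons of the tyrosine and the methionine on either side of that bond. 
Vwf: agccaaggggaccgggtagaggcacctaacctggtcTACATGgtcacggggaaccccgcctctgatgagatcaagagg

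Thrombomodulin transcripts rose with the smallest p-value of the 9 genes. Thbd is an intronless gene on chromosome 2 (148404466 to 148408188, minus strand), and its product binds thrombin on the endothelial surface. Counts were 228 and 105 in control and 1191 and 872 in extract libraries, or 4.75 and 3.53 CPM against 27.6 and 18.3 CPM. Even the lower extract library was several times above the higher control. The mean was 23.0 ± 6.58 CPM after the extract and 4.14 ± 0.862 CPM in control (SD, n = 2 libraries each), a 5.51-fold difference (log2 fold change 2.46, SE 0.27, edgeR adjusted p = 0.00426). Thbd was called higher under all 14 alternatives run, those that leave out a library included, with log2 fold changes from 2.13 to 2.71.

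Procr, which presents protein C to the thrombin-thrombomodulin complex, did not pass the threshold. The gene (chromosome 2, 155751117 to 155755471, plus strand) had 80 and 30 counts in control and 100 and 88 in extract libraries, or 1.67 and 1.01 CPM against 2.32 and 1.85 CPM. The groups did not overlap, but the gap between them was smaller than the spread within control. The log2 fold change was 0.62 with a 95% interval from -0.44 to 1.69 (edgeR adjusted p = 0.471). Within a library, the log2 ratio of Thbd to Procr counts (0.5 added to each, as in all count ratios) was 1.51 and 1.79 in control and 3.57 and 3.30 in extract libraries. This ratio does not depend on scaling, and it was higher in both extract libraries, by 1.79 on average (exact permutation p = 0.333, two-sided, the smallest that 2 against 2 libraries allow).

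Neither tissue factor nor its inhibitor passed the threshold. F3 (chromosome 3, 121723537 to 121735048, plus strand), the cell surface receptor of factor VIIa, had 128 and 100 counts in control and 158 and 151 in extract libraries, or 2.67 and 3.37 CPM against 3.66 and 3.17 CPM. The groups overlapped. The log2 fold change was 0.18, with a 95% interval from -0.58 to 0.94 (edgeR adjusted p = 0.793).

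Tfpi (chromosome 2, 84432855 to 84476775, minus strand), a Kunitz-type inhibitor of factor Xa and of the tissue factor complex, had 385 and 225 counts in control and 224 and 237 in extract libraries, or 8.03 and 7.57 CPM against 5.19 and 4.97 CPM. Both pairs were tight and did not overlap, with extract below control. The log2 fold change was -0.62 with a 95% interval from -1.15 to -0.09, but the edgeR adjusted p over all genes was 0.155 (unadjusted 0.0287). Over 14 alternatives the log2 fold change ran from -0.66 to -0.45, and the adjusted p was never under 0.05. In the same libraries the log2 ratio of F3 to Tfpi counts was -1.59 and -1.17 in control and -0.50 and -0.65 in extract libraries. Tissue factor counts were thus lower than Tfpi counts in every library, and less so in both extract libraries (mean difference 0.80, exact permutation p = 0.333, two-sided, the smallest possible).

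**Figure D2:**
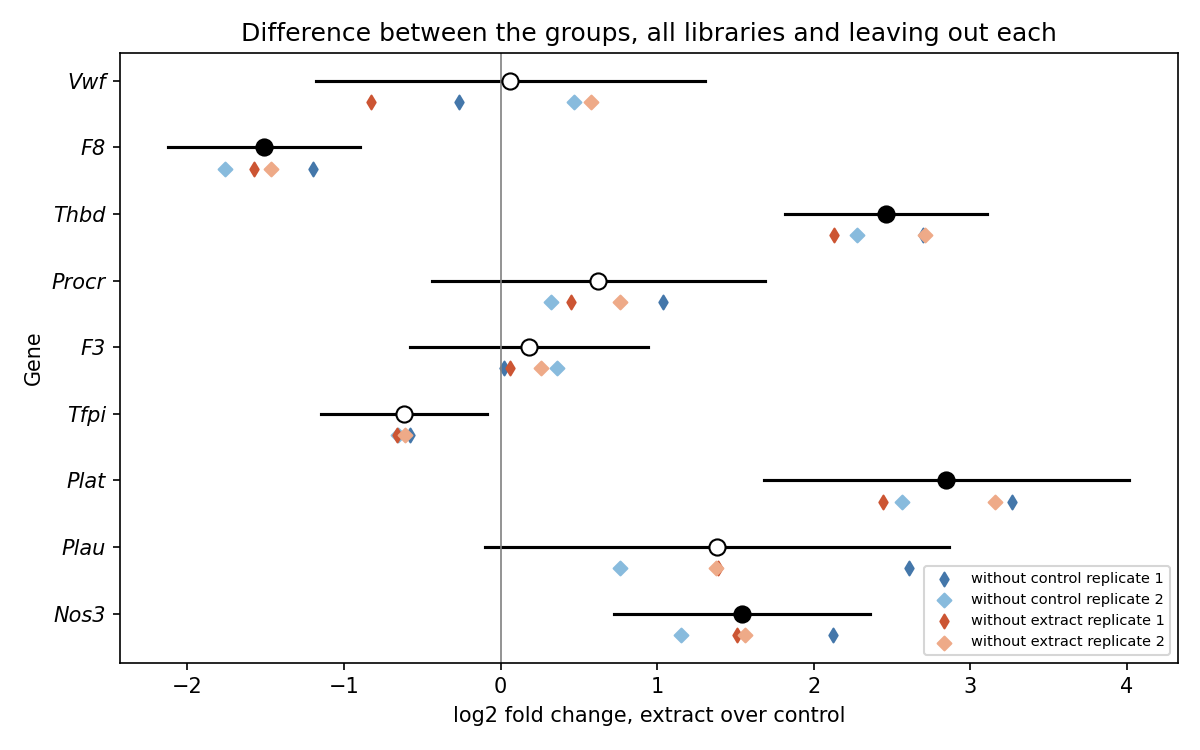
Log2 fold change of each gene with its 95% interval (circle and bar, filled where the edgeR adjusted p is under 0.05) and, beneath, the value with each library left out (diamonds). Thbd, Plat and Nos3 stay above 0 and F8 and Tfpi below 0 throughout, while Vwf lies on either side of 0.

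The sequences before the transcript start are shown for F8, which fell, and for the opposed pair of tissue factor and its inhibitor. RefSeq's promoter table for GRCm38.p6 matched 4 of the 9 genes (F8, F3, Tfpi and Procr). Tfpi has 2 entries, of which the one at the GENCODE gene start is shown. The windows are the 250 bases before the start at chrX:75380042-75380291 (minus strand) for F8, chr3:121723287-121723536 (plus strand) for F3 and chr2:84476760-84477009 (minus strand) for Tfpi. GENCODE starts F8 farther upstream, so the F8 window lies inside the GENCODE gene. Capitals mark matches on either strand to 6 motifs: the TATA box by TATAAA, the GC box by GGGCGG, the CACCC box by CCACCC, AP-1 by TGANTCA, the ETS core by CCGGAA and the NF-kB core by GGGNNTTCC, all free to overlap. 
F8: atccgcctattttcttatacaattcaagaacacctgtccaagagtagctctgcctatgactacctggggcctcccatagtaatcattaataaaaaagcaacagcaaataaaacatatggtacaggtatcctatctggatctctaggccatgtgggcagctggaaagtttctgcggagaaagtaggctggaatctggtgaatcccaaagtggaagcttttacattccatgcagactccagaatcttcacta
F3: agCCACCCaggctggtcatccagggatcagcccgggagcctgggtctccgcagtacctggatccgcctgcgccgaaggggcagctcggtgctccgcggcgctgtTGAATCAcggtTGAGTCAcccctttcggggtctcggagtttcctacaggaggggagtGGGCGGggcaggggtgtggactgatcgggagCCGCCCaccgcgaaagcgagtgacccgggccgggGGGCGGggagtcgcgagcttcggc
Tfpi: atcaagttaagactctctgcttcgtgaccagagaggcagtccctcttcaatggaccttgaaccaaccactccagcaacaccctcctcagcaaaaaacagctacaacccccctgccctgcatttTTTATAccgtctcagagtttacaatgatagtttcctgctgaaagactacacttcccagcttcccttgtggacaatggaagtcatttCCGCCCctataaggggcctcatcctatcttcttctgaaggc

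The F3 window held 3 GC boxes, 2 AP-1 matches and 1 CACCC box, and 70% of its bases were G or C. The Tfpi window held 1 GC box and 1 TATA box match (48.4% G or C), and the F8 window held none of the 6 motifs (42.8%). Among 32851 promoter windows of the same length, 32.7% held a GC box, 28.1% a CACCC box, 12.4% a TATA box, 12% an ETS core, 6.75% an AP-1 match and 4.98% an NF-kB core. These matches describe letters only.

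Tissue plasminogen activator transcripts rose from a low level. Plat (chromosome 8, 22757727 to 22782844, plus strand) encodes the fibrin-dependent activator of plasminogen. It had 29 and 11 counts in control and 193 and 129 in extract libraries, or 0.605 and 0.370 CPM against 4.47 and 2.71 CPM. Both extract libraries were far above both controls, although the 11 counts of control replicate 2 carry an exact Poisson 95% interval from 5.49 to 19.7 for counting error alone. Means were 0.487 ± 0.166 and 3.59 ± 1.25 CPM (SD, n = 2 libraries each), with a log2 fold change of 2.85 (SE 0.49, 95% interval 1.68 to 4.02, edgeR adjusted p = 0.0176). Without extract replicate 1 the log2 fold change was 2.44 and the edgeR adjusted p 0.179.

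Urokinase had higher values in extract libraries, but its control libraries disagreed. Plau (chromosome 14, 20836660 to 20843385, plus strand), the activator that works at the cell surface through its receptor, had 327 and 56 counts in control and 496 and 550 in extract libraries, or 6.82 and 1.89 CPM against 11.5 and 11.5 CPM. The extract pair was nearly equal, while control replicate 1 exceeded replicate 2 by 1.84 on the log2 scale, more than in 95.7% of the genes tested. The log2 fold change was 1.38 with a 95% interval from -0.10 to 2.86 (edgeR adjusted p = 0.239). It was 2.61 without control replicate 1 (edgeR adjusted p = 3.65e-13) and 0.76 without control replicate 2 (edgeR adjusted p = 0.00761), so its size rests on control libraries that disagree. With DESeq2 it was 1.39 (adjusted p = 0.0490). Summed neutrophil markers parted the control libraries the same way (6 genes, 7.32 and 0.337 CPM in control replicates 1 and 2), but stood at 1.44 and 2.16 CPM after the extract, where Plau was highest. Their part in the Plau values was not tested.

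Nitric oxide synthase transcripts rose 2.91-fold. Nos3 (chromosome 5, 24364810 to 24384474, plus strand) had 216 and 68 counts in control and 439 and 466 in extract libraries, or 4.50 and 2.29 CPM against 10.2 and 9.78 CPM. The extract pair was tight and lay above both controls. Means were 3.40 ± 1.57 and 9.98 ± 0.281 CPM (SD, n = 2 libraries each), with a log2 fold change of 1.54 (SE 0.34, edgeR adjusted p = 0.0409). The edgeR adjusted p was 0.169 without extract replicate 1 and 0.143 without extract replicate 2. On the opposite strand, the antisense gene Gm15587 shares 1040 of the 4132 exon bases of Nos3 (25.2%) and the autophagy gene Atg9b shares 294 (7.12%). Without a stated strand setting, reads from these bases cannot be told apart. Atg9b had 15, 7, 19 and 4 counts in the 4 libraries. Gm15587 is not among the genes counted, so it has no count, and its part in the Nos3 values was not tested.

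Per kilobase of annotated exon, the order of the 9 genes changed between the groups. In control libraries Plau (1.84 ± 1.47 CPM per kilobase, SD, n = 2), Tfpi (1.43 ± 0.0587), F8 (1.25 ± 0.339), F3 (1.19 ± 0.195), Thbd (1.11 ± 0.232), Nos3 (0.822 ± 0.379) and Procr (0.659 ± 0.229) followed each other, and each overlapped the next. Vwf (0.329 ± 0.116) and Plat (0.0781 ± 0.0265) came last, and neither overlapped its neighbour. In extract libraries Thbd was first (6.17 ± 1.77 CPM per kilobase), followed by Plau (4.87 ± 0.0134), Nos3 (2.42 ± 0.0679) and F3 (1.35 ± 0.139), and each of these lay above the next in both libraries, Thbd only narrowly so. Procr (1.03 ± 0.164) overlapped Tfpi (0.931 ± 0.0284), and Plat (0.575 ± 0.200), F8 (0.439 ± 0.0245) and Vwf (0.342 ± 0.220) overlapped in turn. F8 thus went from the third to the eighth place and Thbd from the fifth to the first. These levels rest on GENCODE exon lengths, since the authors' annotation is not given in the sources used here. For Vwf that length, 16064 bases over all annotated exons, far exceeds the 8834 bases of its longest coding transcript. Its low place in both groups, and its lack of overlap with Procr in control, therefore depend on the length chosen.

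Set against the geometric mean of 11 pan-endothelial markers in the same library, F8 was lower and Thbd and Plat higher in both extract libraries. The log2 ratio of F8 was -0.71 and -1.13 in control and -2.90 and -2.90 in extract libraries, a mean difference of -1.98. For Thbd it was -2.34 and -2.62 in control and -0.29 and -0.77 after the extract (difference 1.95). For Plat it was -5.29 and -5.82, then -2.92 and -3.52 (difference 2.34). Nos3 and Plau differed by 1.13 and 1.18 and Tfpi by -1.12, with no overlap between the groups. F3 differed by -0.32, also with no overlap, and Procr (0.17) and Vwf (-0.56) overlapped. The pan-endothelial mean itself was higher in both extract libraries, by 0.50 on the log2 scale. That shifts each of these differences downward, so that falls look larger and rises smaller. It turned F3 from 0.18 to -0.32. Sinusoidal and vascular markers together differed by 0.09, with overlap. That mean joins lists that went opposite ways, with median log2 fold changes of -1.08 (sinusoidal) and 0.40 (vascular), so it is not a steady reference. Against these markers F8 differed by -1.56, Thbd by 2.36, Plat by 2.75, Plau by 1.59 and Nos3 by 1.54, all without overlap. The F3 value turned to 0.10 with overlap. Tfpi differed by -0.70 and Procr by 0.58, both without overlap, and Vwf (-0.15) overlapped. All groups without overlap had an exact permutation p of 0.333 (two-sided), the smallest possible.

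**Figure D3:**
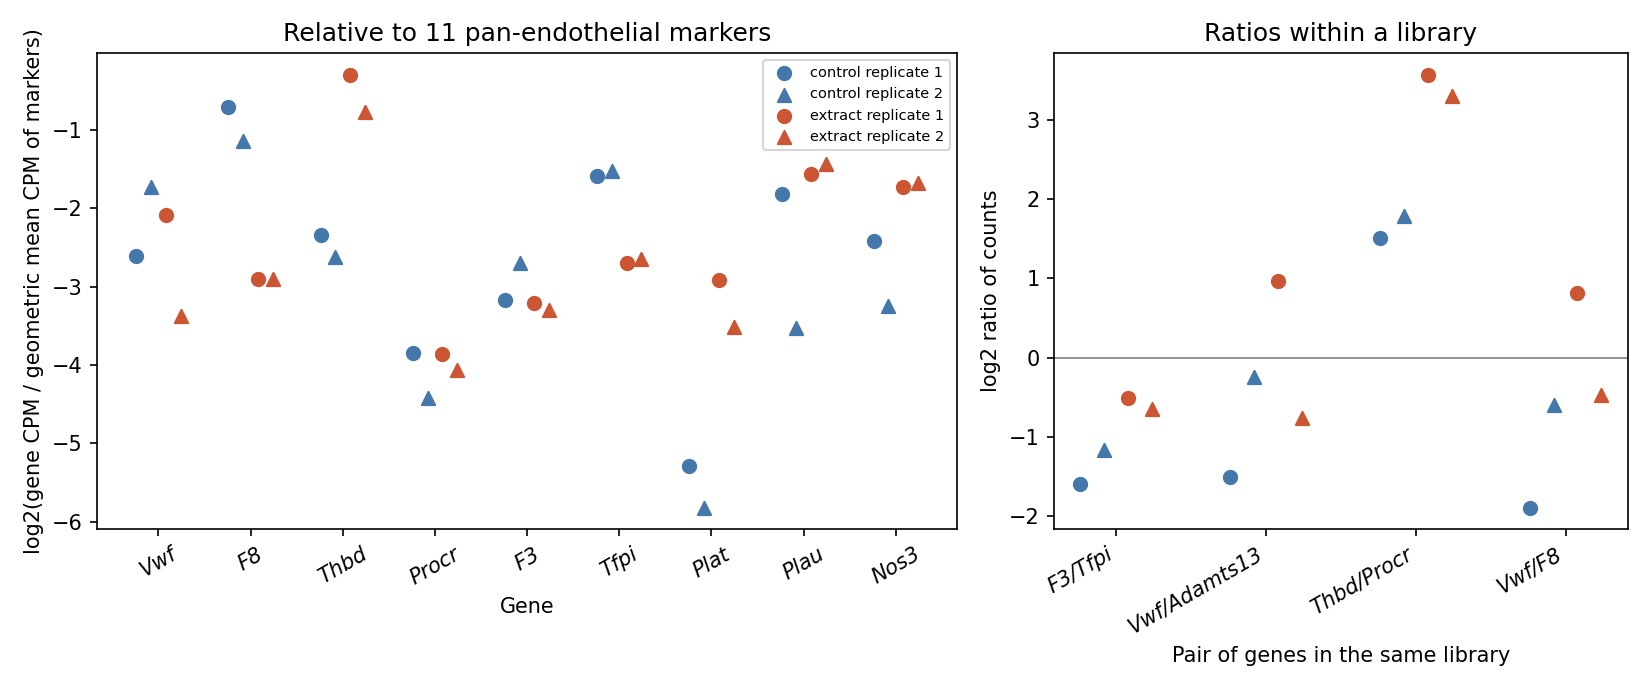
Left, log2 ratio of each gene to the geometric mean CPM of 11 pan-endothelial markers in the same library. Right, log2 ratio of counts of gene pairs within a library, with Thbd/Procr and F3/Tfpi higher in both extract libraries, Vwf/F8 narrowly so, and Vwf/Adamts13 overlapping.

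Von Willebrand factor set against other genes gave unsteady ratios. The log2 ratio of Vwf to Adamts13 counts was -1.51 and -0.24 in control and 0.97 and -0.76 in extract libraries, which overlap (exact permutation p = 0.667, two-sided). Vwf to F8 was -1.89 and -0.59 in control and 0.82 and -0.48 in extract libraries, without overlap (exact permutation p = 0.333, two-sided), though replicate 2 of each group lay close together.

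Among 57 other genes of these pathways, 51 were tested. edgeR called 4 of them higher and 4 lower, and 43 did not pass (median log2 fold change -0.03), beside 4.91% and 3.63% of all genes called higher and lower. DESeq2 called 5 higher and 6 lower. In the von Willebrand factor and factor VIII group (16 tested, 1 higher, 1 lower), Cd63, a tetraspanin of the storage granules and of lysosomes, rose (1.76 on the log2 scale, edgeR adjusted p = 0.0121). Stab2, a sinusoidal scavenger receptor that clears von Willebrand factor and factor VIII, fell (-2.01, edgeR adjusted p = 0.00162). P-selectin (Selp), the platelet and leukocyte adhesion receptor of the same granules, had a log2 fold change of 1.10 (edgeR adjusted p = 0.0764), and Adamts13 one of -1.06 (0.0640). DESeq2 called both (adjusted p = 0.0251 and 0.0119), but over all genes it called 1034 higher and 921 lower, against 686 and 507 with edgeR. With no filter edgeR called Adamts13 (0.0237). The other fits that called them left out a control library. Of 14 alternatives, 11 did not call Selp and 10 did not call Adamts13. Over these 14 the log2 fold change ran from 1.01 to 1.26 for Selp and from -1.29 to -0.77 for Adamts13.

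Around thrombomodulin, no gene of the protein C pathway passed. Of 10 tested genes 0 were called by edgeR, 0 by DESeq2 and 0 by limma-voom. At an unadjusted p under 0.05 stood 1, protein S (Pros1, log2 fold change 0.74, edgeR adjusted p = 0.174). It was called without control replicate 1 (1.22, edgeR adjusted p = 6.73e-10), where 2 genes of the group were. Prothrombin (F2, -0.36), heparin cofactor II (Serpind1, -0.30) and protein C (Proc, -0.29) had the next smallest p-values. In the tissue factor group 1 of 5 fell, factor VII (F7, -0.73, edgeR adjusted p = 0.0286), the ligand of F3. That call was lost with either extract library left out (edgeR adjusted p = 0.320 and 0.157), and F10 (-0.26), F9 (-0.07, or 0.10 with total-count scaling) and Tfpi2 (-0.07, or 0.10 with total-count scaling) did not pass.

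Around the plasminogen activators 1 of 9 genes rose and 2 fell. Annexin A2 (Anxa2), which helps assemble Plat and plasminogen on cells, rose (1.25, edgeR adjusted p = 0.0121). Plasminogen itself (Plg, -0.67, edgeR adjusted p = 0.0486) fell, as did the plasmin inhibitor alpha-2-antiplasmin (Serpinf2, -0.99, edgeR adjusted p = 0.0135). Both calls were lost with either extract library left out. That of Plg was also lost without robust fitting (edgeR adjusted p = 0.0593) and with total-count scaling (0.0939). The urokinase receptor Plaur had a log2 fold change of 1.02 (edgeR adjusted p = 0.239, or 0.0322 without control replicate 1). Lrp1, a scavenger receptor, is counted in this group and in that of von Willebrand factor. In the nitric oxide group 2 of 12 rose, namely Cav1 (2.15, edgeR adjusted p = 0.0102) and Ddah2 (1.79, edgeR adjusted p = 0.00735). Cav1 is the caveolar protein that holds Nos3 in check. Ddah2 belongs to a family named for degrading a natural inhibitor of the synthase. Without extract replicate 1 the edgeR adjusted p was 0.0534 for Cav1 and 0.0513 for Anxa2, and for Ddah2 it was 0.0542 without extract replicate 2. The guanylate cyclase subunit Gucy1a1 (-0.90, edgeR adjusted p = 0.0802) and the flow-responsive factor Klf4 (0.96, edgeR adjusted p = 0.214) did not pass. Gucy1a1 was called lower by DESeq2 (adjusted p = 0.0245), by edgeR with no filter (0.0280) and without control replicate 2 (3.18e-06), and Klf4 was called higher without control replicate 1 (edgeR adjusted p = 0.00237). Klf2, a known inducer of Thbd and Nos3 in endothelium, was named after its values were seen. Its means were 13.6 ± 1.39 CPM in control and, after the extract, 14.1 ± 0.175 CPM (SD over the 2 libraries of a group). The log2 fold change of Klf2 was 0.06 (edgeR adjusted p = 0.889). The part of Klf2 or Klf4 in the Thbd and Nos3 values was not tested.

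**Figure D4:**
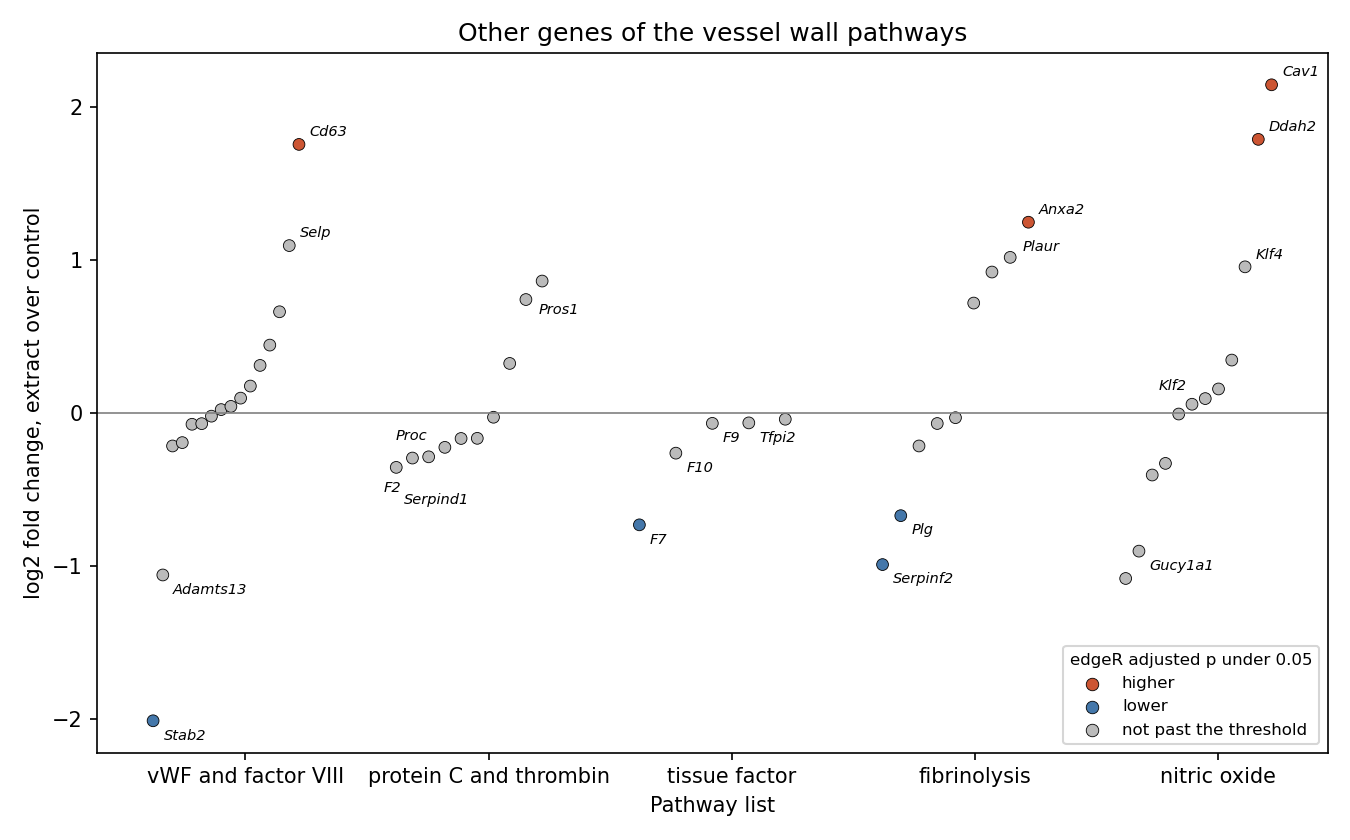
Log2 fold change of the other pathway genes tested, sorted within each of 5 lists and coloured by call. Of 51 genes, 4 were higher (Cd63, Anxa2, Cav1, Ddah2) and 4 lower (Stab2, F7, Plg, Serpinf2).

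Genes with the most similar course over the 4 libraries were found by the root mean square difference of centred log2(CPM + 0.5) values, among 11740 genes. Nearest to Procr was Erg (0.0133), a transcription factor of endothelial cells. For F8 they were Ncf1 (0.0313), Dram1 (0.0383) and Lrrc25 (0.0398), and for Plat Ggta1 (0.0670), Gpnmb (0.0766) and Cav1 (0.0930). Thbd was closest to Ptk7 (0.0786), Gpnmb (0.0788) and Cercam (0.0866), so Gpnmb stood near both Thbd and Plat. Its control values of 0.35 and 0.17 CPM lie below the 0.5 CPM added, which shrinks differences at such levels. Those of Plat itself, 0.605 and 0.370 CPM, lie near 0.5 CPM, so the same limit holds for all its matches. The log2 fold change of Gpnmb was 3.43, against 2.46 for Thbd and 2.85 for Plat. Those of Ggta1 and Cav1, near Plat, were 2.16 and 2.15. Plau was closest to Pdgfb (0.0167), Abcb1a (0.0450) and Bhlhe40 (0.0856), which share its low value in control replicate 2. Nos3 was closest to Dusp8 (0.0544), Uap1l1 (0.0591) and Cyp3a59 (0.0607), and Vwf, with the poorest matches of the 9 genes, to genes that included Htra3 (0.149) and Gpx3 (0.171). Tfpi was closest to Paip2b (0.0133), Tlcd4 (0.0192) and Vgll4 (0.0287), and F3 to Pcid2 (0.0130), Nus1 (0.0141) and Ift22 (0.0183). After Erg, Procr was closest to Zfp41 (0.0182) and Klhl42 (0.0199). With 4 libraries such likeness is a description only.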

How the data were processed

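Each of the 4 deposited files holds the authors' raw read counts per gene symbol for 1 library, as whole numbers with no normalization. CASAVA 1.8, HISAT2 2.1.0 and HTSeq with build mm10 are named per the submitters' processing notes, with no roles. For annotation, strand setting and read length: not given in the sources used here. Rows that name no gene (16.5% to 22.0% of records) stayed out of library sizes and tests. Groups and replicate numbers follow the titles. The test on counts was run in R 4.3.3 with edgeR 4.0.16 (filterByExpr, TMM, robust quasi-likelihood F test, two-sided, Benjamini-Hochberg over 13963 genes, threshold 0.05), checked on simulated data, and CPM use TMM-scaled sizes. The standard error is the log2 fold change over the square root of F, and intervals are 95%. Alternatives were DESeq2 1.42.0, limma-voom (limma 3.58.1), other scalings and filters, a fit without robust steps, a replicate block and leaving out each library. Before TMM scaling, 1 read is worth 0.0201 to 0.0310 CPM. On the TMM-scaled sizes it is worth 0.02085 CPM in control replicate 1 and 0.03366 CPM in control replicate 2. Positions and exon lengths come from GENCODE vM21 (GRCm38, the mm10 assembly). Members and lists were chosen with earlier results of these data known. All 9 members were named, plus up to 4 genes per pathway list and up to 3 per endothelial list ranked by p-value among those averaging 1 CPM or more, then at most 2 called genes of the other direction, with Adamts13 always. Some values that this rule selects are not reported here. Klf2 and single genes of other marker lists were named after their values were seen.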

Additional observations from a re-analysis of the deposited data

How the results depend on the processing

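With all libraries kept, 3 of the 9 genes were higher and 1 lower under every alternative, except 4 higher with DESeq2. Leaving out each library gave 1 to 4 higher and 0 to 1 lower, with both lowest values without extract replicate 1 (Thbd alone called), and 0 lower also without extract replicate 2. Among the 57 other pathway genes, leaving out a library gave 2 to 13 higher and 1 to 9 lower. The count of 13 came without control replicate 1 and the count of 9 lower without control replicate 2. The cause was not tested. Vwf turned to -0.017 with limma-voom and -0.042 with the replicate block, and ran from -0.82 to 0.58 on leaving out a library. F9 turned to 0.10 and Tfpi2 to 0.10 with total-count scaling. On leaving out a library F9 ran from -0.15 to 0.0053, Tfpi2 from -0.34 to 0.14 and Klf2 from -0.04 to 0.17. Total-count scaling moved the median of all genes by 0.17. Over all genes, DESeq2 called 1034 higher and 921 lower, and leaving out a library gave 233 to 1826 higher and 134 to 1782 lower, the fewest without extract replicate 1. The replicate numbers have no stated meaning. The deviations of same-numbered libraries correlated at 0.14 across genes, over 2 pairs, and with the replicate block 902 genes were higher and 682 lower, against 686 and 507, with 3 higher and 1 lower among the 9 and 5 higher (Pros1 added at 0.80, edgeR adjusted p = 0.0472) and 4 lower among the other pathway genes.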

Other observations

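Markers of cells that can also carry these transcripts went in several directions. Of 5 tested mesothelial markers 0 passed with edgeR (3 at an unadjusted p under 0.05), and the summed level of the 6 listed was 15.6 and 7.78 CPM in control and 7.23 and 3.97 CPM in extract libraries. Of 4 tested platelet and megakaryocyte markers 0 passed, and 0 had an unadjusted p under 0.05 (8.90 and 4.91 CPM against 7.28 and 4.81 CPM, 6 genes). Among 6 monocyte markers 1, Lyz2, was lower and 0 higher. Lyz2 held most of the sum, at 106.9 and 87.9 CPM in control and 54.6 and 35.7 CPM after the extract, while the median log2 fold change of the list was 0.38 (Cx3cr1 1.12, Itgam 0.80 and Ccr2 0.72, not past the threshold). Of 8 stellate cell markers 2 were lower (699.9 and 512.1 CPM, then 375.3 and 383.2 CPM), and of 6 bile duct markers 1 was (43.6 and 50.7 CPM, then 44.9 and 47.0 CPM). The thrombin receptor gene F2rl3, too low to test and picked after its values were seen, had 2 and 0 counts in control and 24 and 4 in extract libraries.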
